A study of Mus musculus with 9 samples.

Results

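The genes examined here are 10 genes of the smooth muscle contractile apparatus and of pericytes: Myh11, Acta2, Actc1, Actg2, Tagln, Cnn1, Mylk, Des, Rgs5 and Pdgfrb. They were taken by symbol from the 23420 genes of each count file. All 10 were found, and all 10 were among the 16360 genes that passed the filter on low counts. The list was chosen by function around 1 measured value, the higher level of Myh11 in ovaries cultured with estradiol. The contrast of estradiol with vehicle is therefore given as a description for these 10 genes, with no test, and the contrast of BMP2 with vehicle is tested.

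Ovaries of wild-type CD1 mouse embryos at embryonic day 16 were kept for 24 hours on culture inserts. One group received estradiol-17β (E2) at 3.67 µM, 1 received recombinant human BMP2, a ligand of the TGFβ family, at 50 ng/ml, and 1 received vehicle. All groups shared a phenol red-free medium with insulin, transferrin, selenium and linoleic acid. Each group had 3 libraries, 9 in all, with 30418674 to 34320077 reads counted in genes. No library was a duplicate of another, since chi-square per gene between libraries of a group was 1.51 to 2.39. Whether they came from separate cultures or animals is not stated, so a p-value reflects the spread among the 9 libraries alone, which may be technical. The pregranulosa genes Foxl2 (55.7 to 66.0 CPM, TMM-normalized counts scaled to library size) and Wnt4 (107 to 152 CPM) and the germ cell genes Ddx4 (173 to 192 CPM) and Dazl (359 to 395 CPM) were present in all 9 libraries. With E2, the oestrogen targets Greb1 and Pgr rose 3.75-fold and 3.03-fold over vehicle (edgeR, adjusted p = 1.4e-106 and 8.0e-32), while the oestrogen receptor genes Esr1 and Esr2 did not pass (0.0595 and 0.606). With BMP2, Greb1 rose 1.20-fold (adjusted p = 1.8e-15) and the other 3 genes did not pass.

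Smooth muscle shortens when myosin filaments slide along actin. MYH11 is the heavy chain of smooth muscle myosin, ACTA2 and ACTG2 are smooth muscle actins, and ACTC1 is the cardiac actin, also made early in other muscle. TAGLN and CNN1 bind actin filaments, MYLK is the kinase that switches myosin on by phosphorylating its light chain, and DES forms intermediate filaments of muscle cells. Serum response factor (SRF) binds a DNA element called the CArG box in the promoters of many of these genes and recruits its partner myocardin there. Pericytes wrap capillaries, carry the PDGF receptor PDGFRB, and express RGS5, which damps signalling from G protein-coupled receptors. In the ovary such genes mark vessel walls and the outer theca of grown follicles.

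Myh11 was at 205, 200.3 and 201 CPM in the E2 libraries, 60.5, 57.0 and 57.2 CPM in the BMP2 libraries and 59.3, 60.4 and 59.2 CPM in the vehicle libraries. Every E2 library stood far above every other library, while BMP2 and vehicle libraries overlapped. The means were 202 ± 2.80 CPM with E2 and 59.6 ± 0.689 CPM with vehicle (SD, n = 3 each), 3.39-fold higher with E2 (log2 fold change 1.76 ± 0.028 SE). Myh11 lies on the minus strand of chromosome 16 from 14194535 to 14291372 (GRCm38), with 7599 exon bases in 43 blocks, none of which another annotated gene overlaps. Of its stretches of 50 bases, 0.340% also occur in another gene, all of them in the non-muscle myosin gene Myh9 and some in Myh10 too. These are whole ovaries, in which more cells of a type and more RNA per cell cannot be told apart.

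**Figure D1:**
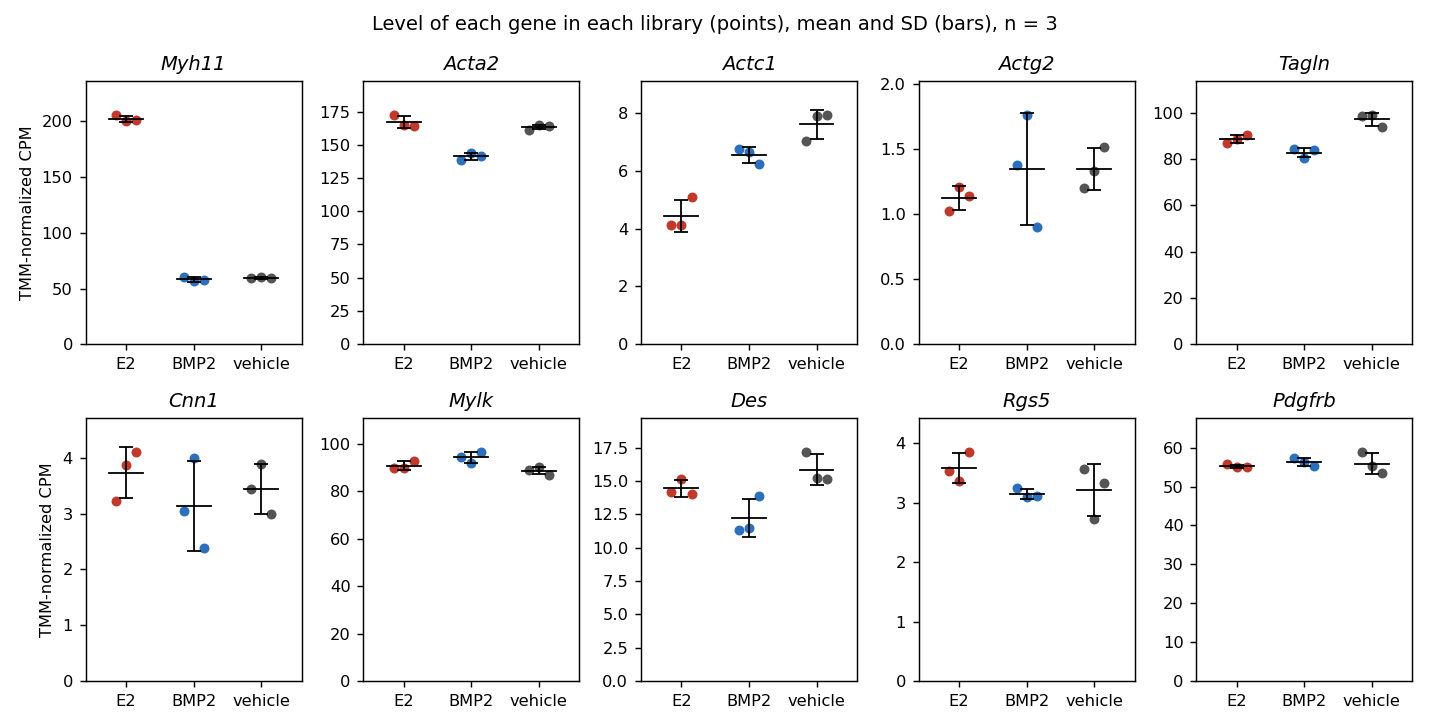
Level of each of the 10 genes (y axis, TMM-normalized CPM, from 0) in each library (points) with the mean and SD of 3 libraries, for E2, BMP2 and vehicle. Myh11 is at 200.3 to 205 CPM with E2 and below 61 CPM in the other libraries, while no other gene has E2 libraries set above all vehicle libraries.

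None of the other contractile genes among the 10 stood above all vehicle libraries in every E2 library. Acta2 was at 172, 165 and 164 CPM with E2 and at 161, 165 and 164 CPM with vehicle, and the groups overlapped (log2 fold change 0.032 ± 0.024 SE). Mylk, the myosin light chain kinase gene, was at 90.0, 89.7 and 93.0 CPM with E2 and at 88.8, 90.1 and 87.1 CPM with vehicle, also with overlap (0.036 ± 0.029). Both genes are members of the machinery that works with MYH11, one as its track and one as its switch. Tagln was at 86.9, 88.6 and 90.5 CPM with E2 and at 98.8, 98.9 and 93.8 CPM with vehicle. All 3 E2 libraries were below all 3 vehicle libraries for Tagln, by 1.10-fold in the means (log2 fold change -0.13 ± 0.029).

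Acta2 lies on the minus strand of chromosome 19 from 34241090 to 34255590, Mylk on the plus strand of chromosome 16 from 34745210 to 35002420, and Tagln on the minus strand of chromosome 9 from 45929619 to 45936058 (GRCm38). Annotated genes overlap 6.85% of the exon bases of Mylk and 67.9% of those of Tagln. For Tagln this is mostly an antisense gene, Gm48529, which is not among the genes of the count files. The kit does not mark strand, so reads of Tagln and of Gm48529 cannot be told apart. None of the exon bases of Acta2 is overlapped.

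The cardiac actin gene Actc1, on the minus strand of chromosome 2 from 114047282 to 114053548, differed most in the other direction. It was at 4.12, 4.13 and 5.09 CPM with E2 and at 7.02, 7.88 and 7.91 CPM with vehicle, with no overlap. The means were 4.45 ± 0.555 CPM with E2 and 7.60 ± 0.506 CPM with vehicle, 1.71-fold lower with E2 (log2 fold change -0.77 ± 0.10). Genes of striated muscle were measured beside it, since Actc1 and Des are also made there. Of 12 such genes, 9 were tested, and with E2 1 rose, 2 fell and 6 did not pass. The number that rose was 2 without vehicle replicate 3 or E2 replicate 1. Of all genes tested, 15.8% rose and 16.5% fell with E2 (adjusted p under 0.05, edgeR). This list and those that follow were chosen with earlier results of these data known. Tnni1, slow skeletal troponin I, fell 1.79-fold (13.9 ± 1.29 CPM with E2 and 24.8 ± 0.852 CPM with vehicle, adjusted p = 2.1e-26, edgeR), while Neb, the thin filament protein nebulin, rose 1.36-fold (adjusted p = 6.3e-09). Mybpc1, a thick filament gene, fell by 0.38 on the log2 scale (adjusted p = 0.0134), a call lost with DESeq2 (0.0541) and without vehicle replicate 2 (0.0591), vehicle replicate 3 (0.0527), E2 replicate 1 (0.0677) or E2 replicate 3 (0.0508). The 12 genes summed to 43.0 to 45.9 CPM with E2, 43.5 to 46.1 CPM with BMP2 and 48.9 to 52.3 CPM with vehicle. Most of this sum was Tnni1 and Neb, which moved opposite ways with E2 (Neb 18.6 ± 2.09 CPM with E2 and 13.6 ± 0.510 CPM with vehicle). The sum therefore does not show a fall shared by the list. Myod1, which starts the skeletal muscle program, had 0 counts in all 9 libraries. The part of striated muscle RNA in the level of Actc1 was not tested.

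The promoters of Acta2 and Actc1 are shown because both genes encode muscle actins and hold CArG-like elements, while with E2 the libraries of Acta2 overlapped those of vehicle and the libraries of Actc1 lay below them. RefSeq promoter windows were read for 6 of the 10 genes, from 250 bases before to 50 after the gene's start on GRCm38.p6. None was read for Myh11, Tagln, Actg2 or Pdgfrb. Each is printed 5′ to 3′ on the strand of the gene, the minus strand for both, and RefSeq's start lies inside the GENCODE span of the gene given above. Capitals mark CArG-like elements, that is CC, then 6 letters of which at least 5 are A or T, then GG, a pattern that reads the same on both strands.
Acta2, chr19:34255324-34255623: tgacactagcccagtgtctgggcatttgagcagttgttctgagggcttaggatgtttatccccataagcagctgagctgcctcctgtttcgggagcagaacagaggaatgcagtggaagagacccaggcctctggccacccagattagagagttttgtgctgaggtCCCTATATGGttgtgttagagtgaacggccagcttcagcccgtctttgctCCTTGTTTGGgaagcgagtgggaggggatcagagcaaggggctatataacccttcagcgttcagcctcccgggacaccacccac
Actc1, chr2:114052826-114053125: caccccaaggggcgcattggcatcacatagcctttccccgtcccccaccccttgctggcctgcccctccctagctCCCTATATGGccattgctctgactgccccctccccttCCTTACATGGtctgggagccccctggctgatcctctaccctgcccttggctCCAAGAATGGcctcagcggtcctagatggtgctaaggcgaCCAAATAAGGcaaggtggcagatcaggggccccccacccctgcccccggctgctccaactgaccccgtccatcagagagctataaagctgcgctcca

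The Acta2 window holds 2 CArG-like elements, whose first bases lie at -84 and -34, and the Actc1 window holds 4, at -175, -138, -87 and -47. Positions are counted from RefSeq's gene start, which may differ from where transcription begins. In both windows the letters tataa lie after that gene start. The element of Actc1 at -47 is a CArG box by the strict pattern, in which all 6 inner letters are A or T. Among 32851 RefSeq promoters of this length, 1.63% hold a strict CArG box and 9.98% a CArG-like element, a looser pattern chosen after the sequences were seen. The windows of Cnn1, Mylk, Des and Rgs5 hold neither. A full oestrogen response element, GGTCANNNTGACC, was in none of the 6 windows and in 0.0700% of all promoters. Its half-site, GGTCA on either strand, which the full element contains, was in the windows of Actc1, Mylk and Rgs5 and in 40.5% of all promoters. A match describes letters only, and no match speaks only of these windows. Myh11 had no window here, so the search does not cover it.

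The remaining contractile genes were close to vehicle or too low to separate. Des was at 14.2, 15.2 and 14.0 CPM with E2 and at 17.2, 15.2 and 15.1 CPM with vehicle, overlapping (log2 fold change -0.13 ± 0.067). It lies on chromosome 1, plus strand, from 75360329 to 75368579, and the gene Gm15179 covers 5.86% of its exon bases. Cnn1 was at 3.23, 3.87 and 4.11 CPM with E2 and at 3.45, 3.89 and 3.00 CPM with vehicle (0.12 ± 0.13). Actg2, the actin of visceral smooth muscle, was the lowest of the 10 by CPM, at 1.02, 1.21 and 1.14 CPM with E2 and 1.20, 1.33 and 1.51 CPM with vehicle (-0.26 ± 0.22). The low counts of Cnn1 (82 to 134 reads per library) and Actg2 (31 to 59) give wide errors, so a small change would not be detectable at this depth.

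Neither pericyte gene stood apart with E2. Pdgfrb was at 55.7, 55.0 and 54.9 CPM with E2 and at 58.9, 55.2 and 53.5 CPM with vehicle (log2 fold change -0.018 ± 0.036). Rgs5 was at 3.53, 3.37 and 3.85 CPM with E2 and at 3.57, 2.72 and 3.34 CPM with vehicle (0.15 ± 0.13). The libraries of both genes overlapped between the groups. In all, the E2 and vehicle libraries did not overlap for 3 of the 10 genes, 1 higher (Myh11, whose level chose the list) and 2 lower (Actc1 and Tagln), where 41.2% of the 16360 genes had no overlap. Of all genes tested in this contrast, 32.3% were called at an adjusted p under 0.05, 15.8% higher and 16.5% lower. The median log2 fold change was 0.0068 over the 10 genes and -0.0026 over all genes tested.

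**Figure D2:**
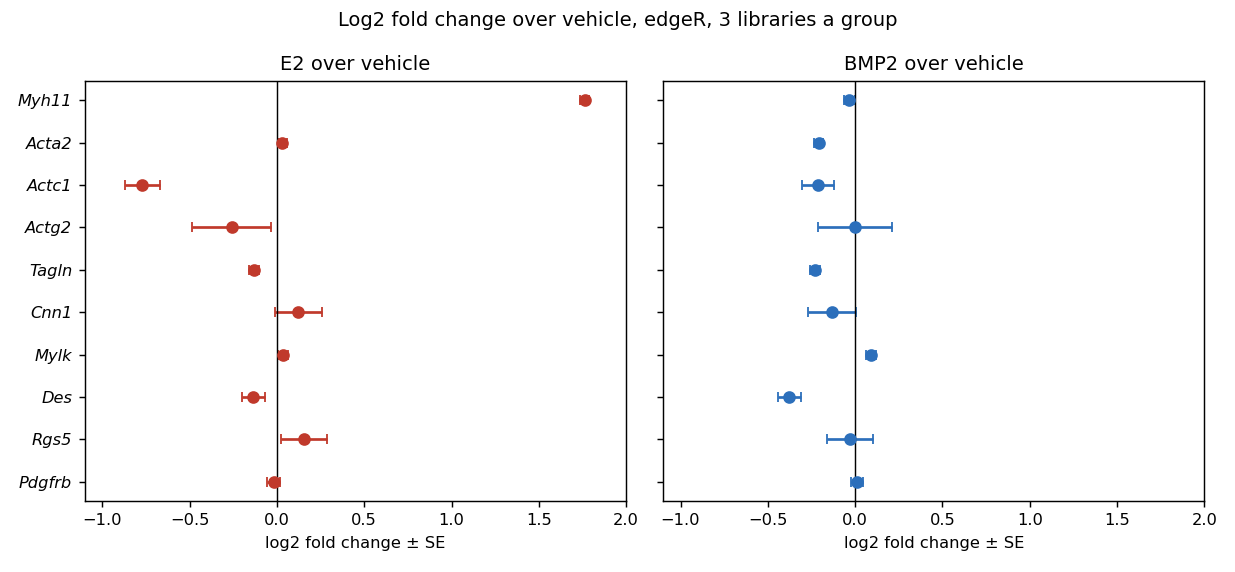
Log2 fold change over vehicle (x axis) with its SE for each gene (rows), with E2 on the left and BMP2 on the right, from edgeR with 3 libraries a group. With E2, Myh11 lies at 1.76 and the other 9 genes between -0.77 and 0.15; with BMP2, the 10 genes lie between -0.38 and 0.090.

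With BMP2, 3 contractile genes fell and Myh11 did not pass. Acta2 was at 139, 143 and 142 CPM with BMP2 and at 161, 165 and 164 CPM with vehicle. All BMP2 libraries were below all vehicle libraries, 1.16-fold lower in the fit (log2 fold change -0.21 ± 0.024 SE, adjusted p = 8.1e-13, edgeR). Tagln was at 84.2, 80.5 and 83.7 CPM with BMP2 and at 98.8, 98.9 and 93.8 CPM with vehicle. It fell 1.17-fold, again with no overlap (-0.23 ± 0.029, adjusted p = 1.1e-10). Des was at 11.3, 11.5 and 13.9 CPM with BMP2 and at 17.2, 15.2 and 15.1 CPM with vehicle. BMP2 replicate 3 stood above the other BMP2 libraries for Des but below every vehicle library, and the gene fell 1.30-fold (-0.38 ± 0.068, adjusted p = 7.8e-06).

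Mylk moved the other way by little. It was at 94.4, 92.1 and 96.6 CPM with BMP2 and at 88.8, 90.1 and 87.1 CPM with vehicle, with no overlap, and rose 1.06-fold (log2 fold change 0.090 ± 0.029 SE, adjusted p = 0.0213, edgeR). That call was lost with DESeq2 (adjusted p = 0.0578) and without BMP2 replicate 1 (0.0620), BMP2 replicate 3 (0.144), vehicle replicate 1 (0.0587) or vehicle replicate 3 (0.0835). Actc1 was at 6.76, 6.65 and 6.25 CPM with BMP2 and at 7.02, 7.88 and 7.91 CPM with vehicle. Its libraries did not overlap, yet it did not pass (-0.21 ± 0.093, adjusted p = 0.117). Of the striated muscle genes tested, with BMP2 none rose (edgeR; 1 at an unadjusted p under 0.05, and 0 with DESeq2), 2 fell and 7 did not pass. Among all genes tested, 6.84% were called higher and 6.85% lower with BMP2. Tnni1 fell 1.35-fold (18.4 ± 0.924 CPM with BMP2 and 24.8 ± 0.852 CPM with vehicle, adjusted p = 2.4e-10). Mybpc1 fell by 0.42 on the log2 scale (adjusted p = 0.0124), which was lost with DESeq2 (0.0631) and without BMP2 replicate 1 (0.0832), vehicle replicate 2 (0.0599) or vehicle replicate 3 (0.0521). Their part in the levels of Actc1 and Des was not tested.

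The other 5 genes did not pass with BMP2. Myh11 was 58.2 ± 1.99 CPM with BMP2 and 59.6 ± 0.689 CPM with vehicle (log2 fold change -0.034 ± 0.032, adjusted p = 0.563), a difference within the spread between libraries. Pdgfrb was 56.3 ± 0.998 CPM with BMP2 and 55.9 ± 2.73 CPM with vehicle (0.0099 ± 0.035, adjusted p = 0.903). Rgs5 was 3.15 ± 0.0841 CPM with BMP2 and 3.21 ± 0.436 CPM with vehicle (-0.030 ± 0.13, adjusted p = 0.922). Cnn1 ranged from 2.38 to 3.996 CPM with BMP2 and from 2.998 to 3.89 CPM with vehicle (-0.13 ± 0.14, adjusted p = 0.597). Actg2 ranged from 0.901 to 1.76 CPM with BMP2 and from 1.20 to 1.51 CPM with vehicle (-0.0031 ± 0.21, adjusted p = 0.995).

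Together 4 of 10 genes were called with BMP2, 1 higher and 3 lower, where 13.7% of all genes tested were called, 6.84% higher and 6.85% lower. Libraries did not overlap for 5 of the 10, against 28.0% of all genes. The median log2 fold change of the 10 genes was -0.084, and that of all genes was -0.0015. The E2 and BMP2 contrasts share the vehicle libraries. Set side by side, E2 libraries were above all BMP2 libraries for Myh11 (3.47-fold in the means), Acta2 (1.18-fold), Tagln (1.07-fold), Des (1.18-fold) and Rgs5 (1.14-fold). For Actc1 all E2 libraries were below the BMP2 libraries, at 0.678 of their mean. Actg2, Cnn1, Mylk and Pdgfrb overlapped between E2 and BMP2. The share of all genes without overlap between E2 and BMP2 was not computed, and none of these comparisons was tested.

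Levels of different genes were compared per exon length, as CPM per kb of annotated exon. Exon length joins the exons of all annotated transcripts of a gene, so it can exceed the length of 1 transcript. In vehicle libraries Acta2 was the highest at 74.4 ± 0.792 CPM per kb (SD, n = 3), followed by Tagln at 48.9 ± 1.48 and Pdgfrb at 10.2 ± 0.499. Mylk (7.87 ± 0.135) and Myh11 (7.85 ± 0.0907) came next and did not differ beyond their spread. Actc1 (4.70 ± 0.313) and Des (4.22 ± 0.309) overlapped too, Cnn1 stood at 1.26 ± 0.163, and Actg2 (0.865 ± 0.102) and Rgs5 (0.706 ± 0.0960) overlapped at the low end. With E2, Myh11 reached 26.6 ± 0.368 CPM per kb, behind Acta2 (76.1 ± 1.99) and Tagln (44.6 ± 0.902). Of the exon bases of Tagln, 62.4% lie under Gm48529, whose share in the level was not tested, and 5.43% under Pcsk7, which did not pass in either contrast (edgeR, adjusted p = 0.558 with E2 and 0.342 with BMP2).

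**Figure D3:**
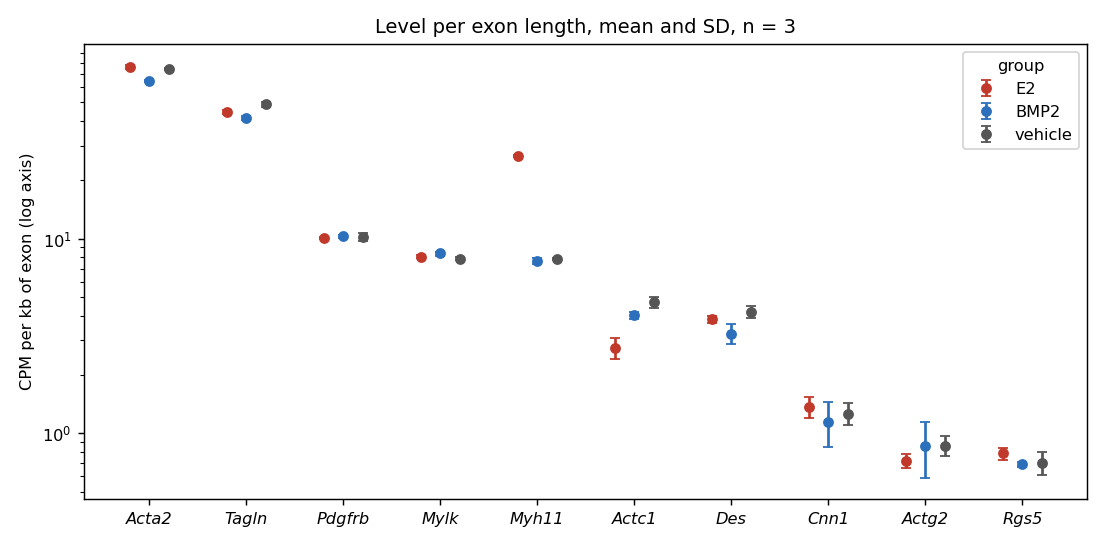
Level per exon length (y axis, CPM per kb of exon, log axis) of the 10 genes in order of their vehicle level, with the mean and SD of 3 libraries for E2, BMP2 and vehicle. Myh11 lies beside Mylk with BMP2 and vehicle (means of 7.66 to 8.38 CPM per kb) and at 26.6 CPM per kb with E2.

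Myh11 was also set beside the non-muscle myosin heavy chains, which drive contractility in nearly all cells. Myh9 was 31.1 ± 1.05 CPM per kb with E2 and 31.8 ± 1.18 with vehicle, and Myh10 46.6 ± 0.576 with E2 and 47.1 ± 0.941 with vehicle. Neither passed with E2 (adjusted p = 0.246 and 0.514, edgeR). Of the summed level per kb of Myh11, Myh9, Myh10 and Myh14, Myh11 made up 25.3% ± 0.269 with E2, 8.93% ± 0.261 with BMP2 and 8.99% ± 0.156 with vehicle (SD, n = 3 each). These shares depend on the joined exon lengths, 7599 bases for Myh11, 12928 for Myh9 and 10458 for Myh10. Of 10 other myosin heavy chain genes, with E2 1 rose, 2 fell and 7 did not pass (all genes: 15.8% higher, 16.5% lower). Myh14, another non-muscle chain, rose 1.86-fold (7.21 ± 0.527 CPM with E2 and 3.87 ± 0.195 CPM with vehicle, adjusted p = 2.1e-12). The skeletal chains Myh4 and Myh8 fell 1.37-fold and 1.13-fold (adjusted p = 0.00160 and 0.00164). With BMP2 the list gave 1 rise and 9 that did not pass (all genes: 6.84% higher, 6.85% lower). None of the list fell with edgeR or DESeq2, 2 were lower at an unadjusted p under 0.05, and 1 was called lower without vehicle replicate 3. The riser was Myh4 (adjusted p = 0.0326), lost with DESeq2 (0.129) and without BMP2 replicate 1 (0.0669), BMP2 replicate 2 (0.175), vehicle replicate 1 (0.0664) or vehicle replicate 3 (0.159).

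Other genes of the contractile apparatus moved both ways with E2. Of 30 further genes of actin filaments, their regulators and their anchors, 4 rose, 13 fell and 13 did not pass (median log2 fold change -0.039). Over all genes tested, 15.8% were called higher and 16.5% lower with E2. Tpm1, a tropomyosin that lies along actin, rose 1.27-fold (462 ± 3.04 CPM with E2 and 363 ± 4.36 CPM with vehicle, adjusted p = 3.3e-37, edgeR). Ppp1r14a, which inhibits the phosphatase that switches myosin off, rose 1.66-fold at a low level (2.86 ± 0.347 CPM with E2 and 1.72 ± 0.263 CPM with vehicle, adjusted p = 1.2e-04). Synpo2, an actin-bundling protein of muscle, fell 1.35-fold (adjusted p = 2.3e-06). The cytoplasmic actins Actb and Actg1 fell 1.05-fold and 1.10-fold (adjusted p = 1.7e-04 and 8.1e-14), both of 2 tested.

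With BMP2 the same 30 genes gave 1 rise and 13 falls (all genes: 6.84% higher, 6.85% lower), and 16 did not pass (median -0.054). The number that rose was 2 with a filter at a mean CPM of 1 and without vehicle replicate 3. Tpm2, the other muscle tropomyosin, fell 1.23-fold (15.95 ± 0.937 CPM with BMP2 and 19.7 ± 0.580 CPM with vehicle, adjusted p = 4.2e-05), and Cnn2, a calponin of many cell types, 1.16-fold (adjusted p = 1.8e-07). The member that rose was Myl9, the light chain that MYLK phosphorylates, at 367 ± 3.29 CPM with BMP2 and 309 ± 9.57 CPM with vehicle (1.19-fold, adjusted p = 2.1e-21). Actb and Actg1 fell here too, 1.06-fold and 1.05-fold (adjusted p = 1.1e-04 and 3.1e-04).

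Of 15 genes that set the excitability and calcium supply of smooth muscle, 7 rose with E2, none fell and 8 did not pass. Their median log2 fold change was 0.35. Over all genes tested, 15.8% were called higher and 16.5% lower. The list was chosen with earlier results of these data known, so its counts and adjusted p-values are a description of it. None of the 15 was lower at an unadjusted p under 0.05 with edgeR, nor called lower with DESeq2. Pln, phospholamban, which restrains the calcium pump of the endoplasmic reticulum, rose 2.01-fold (13.1 ± 0.936 CPM with E2 and 6.53 ± 0.373 CPM with vehicle, adjusted p = 1.9e-22, edgeR). Both subunits of the nitric oxide receptor guanylate cyclase rose, Gucy1a3 1.55-fold (219 ± 1.42 CPM with E2 and 141 ± 0.812 CPM with vehicle, adjusted p = 2.1e-56) and Gucy1b3 1.53-fold (adjusted p = 3.1e-25). The calcium release channels Ryr2 (log2 fold change 0.51, adjusted p = 1.9e-50) and Itpr1 (0.35, adjusted p = 7.1e-36), named after their values were seen, rose as well. The 8 that did not pass were Kcnmb1, Kcnma1, Cacna1h, Casq2, Prkg1, Pde5a, Ednra and Agtr1a. Their log2 fold changes lay between -0.14 (Agtr1a) and 0.61 (Casq2, at 0.835 CPM with E2). Which cells express the genes of this list was not tested.

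With BMP2 2 of these 15 genes rose and 1 fell (all genes: 6.84% higher, 6.85% lower), and 12 did not pass (median -0.014). The chloride channel gene Ano1 fell 1.06-fold (adjusted p = 0.00538). Pln rose 1.19-fold (adjusted p = 0.0436), lost with DESeq2 (0.126) and without BMP2 replicate 1 (0.191), BMP2 replicate 3 (0.0846), vehicle replicate 1 (0.211) or vehicle replicate 2 (0.0670). Cacna1h, a T-type calcium channel, rose 1.06-fold (adjusted p = 0.0419), lost with DESeq2 (0.102) and without BMP2 replicate 2 (0.147), BMP2 replicate 3 (0.0993), vehicle replicate 1 (0.156) or vehicle replicate 3 (0.154). With DESeq2, and without BMP2 replicate 3 or vehicle replicate 1, 0 of the 15 were called higher; without any 1 of the other BMP2 or vehicle libraries 1 was.

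**Figure D4:**
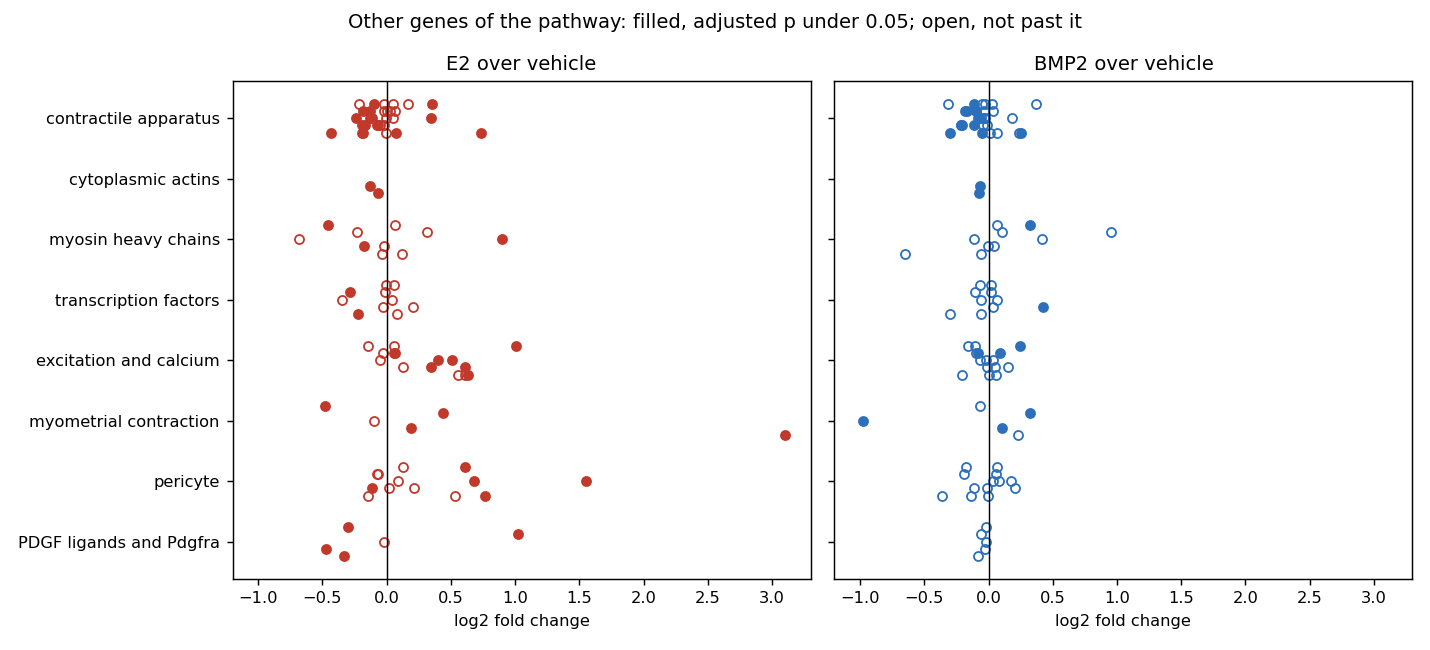
Log2 fold change (x axis) of each tested gene of 8 lists (rows), with E2 on the left and BMP2 on the right; filled points have an adjusted p under 0.05. With E2 the excitation and calcium row lies mostly right of 0 (7 of 15 called higher), while the contractile apparatus row has 4 called higher and 13 lower. Of all genes tested with E2, 15.8% were called higher and 16.5% lower. The lists were chosen with earlier results of these data known.

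Of 5 genes tied to contraction of the uterine muscle, with E2 3 rose and 1 fell (all genes: 15.8% higher, 16.5% lower). The other did not pass. Oxtr, the oxytocin receptor gene, was at 0.561, 1.24 and 1.71 CPM with E2 and at 0.175, 0.130 and 0.0927 CPM with vehicle. It rose 8.59-fold, with 110 reads over the E2 libraries and 13 over the vehicle libraries (log2 fold change 3.10 ± 0.40 SE, adjusted p = 3.9e-11, edgeR). Ptgfr, a prostaglandin receptor gene, rose 1.36-fold (adjusted p = 5.6e-05). Ptger3, another, fell 1.39-fold (adjusted p = 0.00913), lost without vehicle replicate 2 (0.0543), vehicle replicate 3 (0.0571) or E2 replicate 3 (0.0878). With BMP2 2 rose, 1 fell and 2 did not pass (all genes: 6.84% higher, 6.85% lower). The gap junction gene Gja1 rose 1.07-fold (adjusted p = 4.3e-05). Ptgfr rose 1.25-fold (adjusted p = 0.0102), lost with DESeq2 (0.0510) and without BMP2 replicate 3 (0.0909) or vehicle replicate 1 (0.0836). Ptgs2, a prostaglandin synthase gene, fell 1.97-fold (adjusted p = 0.00407), lost without BMP2 replicate 1 (0.0548).

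Of 12 genes of transcription factors that govern the contractile program 10 were tested, and with E2 none rose, 2 fell and 8 did not pass. At an unadjusted p under 0.05 2 were higher with edgeR, DESeq2 called 0 higher, and 1 was called higher without vehicle replicate 3 or E2 replicate 3. The 2 that fell were Gata6 (1.17-fold, adjusted p = 1.0e-12, edgeR) and Hic1 (1.22-fold, adjusted p = 3.2e-04). Among all genes tested, 15.8% were called higher and 16.5% lower with E2. With BMP2 1 of the 10 rose, none fell and 9 did not pass (all genes: 6.84% higher, 6.85% lower). Here 2 were lower at an unadjusted p under 0.05 with edgeR, DESeq2 called 0 lower, and 1 was called lower without BMP2 replicate 1 or vehicle replicate 3. Klf4, a repressor of smooth muscle genes in vessel walls, rose 1.34-fold (7.45 ± 0.586 CPM with BMP2 and 5.57 ± 0.197 CPM with vehicle, adjusted p = 5.2e-04). Neither Srf (adjusted p = 0.660 with E2 and 0.675 with BMP2) nor Myocd, the gene of myocardin (0.624 and 0.0557), passed; both were named for their role.

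Of 15 further pericyte genes 13 were tested, and with E2 4 rose, 1 fell (2 without vehicle replicate 3) and 8 did not pass. Over all genes tested, 15.8% were called higher and 16.5% lower. The gene that fell was Anpep (1.08-fold, adjusted p = 0.00153, edgeR). Cspg4 (log2 fold change -0.15, adjusted p = 0.0516), Notch3 (-0.064, 0.329) and Mcam (0.090, 0.0679) did not pass. Anpep and these markers were named after their values were seen. Angpt1, the ligand by which mural cells steady endothelium through TEK, rose 2.94-fold (17.4 ± 1.68 CPM with E2 and 5.92 ± 0.955 CPM with vehicle, adjusted p = 8.1e-37, edgeR). Abcc9, the regulatory subunit of the vascular potassium channel gated by ATP, rose 1.70-fold (30.8 ± 1.21 CPM with E2 and 18.2 ± 0.799 CPM with vehicle, adjusted p = 4.2e-27). Its pore subunit Kcnj8, named after its value was seen, rose too (log2 fold change 0.61 ± 0.091, adjusted p = 7.7e-09). Cox4i2, a mitochondrial subunit, rose 1.60-fold (adjusted p = 0.0194), lost with DESeq2 (0.0677) and without vehicle replicate 1 (0.140), E2 replicate 1 (0.112) or E2 replicate 3 (0.0808). With BMP2 none of the 13 passed with edgeR or DESeq2, while 1 was higher and 1 lower at an unadjusted p under 0.05. Without vehicle replicate 3, 1 was called higher.

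Among the ligands and the sister receptor of PDGFRB, 5 genes in all, with E2 1 rose, 3 fell and 1 did not pass. Over all genes tested, 15.8% were called higher and 16.5% lower. Pdgfd, whose product binds PDGFRB, rose 2.03-fold (49.0 ± 1.19 CPM with E2 and 24.1 ± 1.28 CPM with vehicle, adjusted p = 3.6e-46, edgeR). Pdgfb, the endothelial ligand that recruits pericytes, fell 1.39-fold (6.72 ± 0.475 CPM with E2 and 9.31 ± 0.478 CPM with vehicle, adjusted p = 2.2e-06), and Pdgfa fell 1.26-fold (adjusted p = 4.9e-06). With BMP2 none of the 5 passed with edgeR or DESeq2, and 0 had an unadjusted p under 0.05.

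Markers of neighbouring cell types moved with E2 as well, where 15.8% of all genes tested were called higher and 16.5% lower. Of 6 endothelial genes, 4 rose, 1 fell and 1 did not pass, with Emcn 1.35-fold higher (adjusted p = 3.1e-07, edgeR), Pecam1 1.24-fold higher (1.8e-11) and Kdr 1.25-fold lower (1.5e-19). The 6 summed to 203 to 215 CPM with E2 and 207 to 212 CPM with vehicle, and none was at 0. Of 10 stromal genes 3 rose and 7 fell, among them Col1a1 (1.27-fold lower, adjusted p = 4.3e-21) and Lum (1.27-fold higher, 1.3e-18). Their sum was 2728 to 2797 CPM with E2 and 3235 to 3294 CPM with vehicle. Most of it was 1 gene, Col3a1, at 1515 to 1566 CPM with E2 and 1908 to 1938 CPM with vehicle. Of 5 mesonephric genes 4 were tested, and with E2 Emx2 fell 1.09-fold (adjusted p = 1.1e-04) while 3 did not pass. Their sum was 119 to 128 CPM with E2 and 131 to 136 CPM with vehicle. Nearly all of it was Emx2, at 111 to 122 CPM with E2 and 124 to 128 CPM with vehicle, so the sum mainly restates that gene.

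With BMP2 the endothelial list gave 1 rise and 5 that did not pass (all genes: 6.84% higher, 6.85% lower). The rise was Cdh5 (1.14-fold, adjusted p = 0.00129, edgeR, lost at 0.0597 without vehicle replicate 1). The endothelial sum was 207 to 214 CPM with BMP2 and 207 to 212 CPM with vehicle. Of the stromal genes 1 rose, 3 fell (1 with DESeq2 and without BMP2 replicate 1 or 3) and 6 did not pass, among them Wnt5a (1.14-fold lower, adjusted p = 3.9e-05) and Col3a1 (1.07-fold higher, 5.6e-07). Tcf21 fell 1.08-fold (adjusted p = 0.0487), lost in 9 of its 12 alternatives. The stromal sum, again mostly Col3a1 (2029 to 2072 CPM with BMP2), was 3335 to 3390 CPM with BMP2 and 3235 to 3294 CPM with vehicle. The mesonephric gene Cdh16 fell 2.50-fold (0.472 ± 0.169 CPM with BMP2 and 1.18 ± 0.148 CPM with vehicle, adjusted p = 1.4e-04) and 3 did not pass. The mesonephric sums were 132 to 135 CPM with BMP2 and 131 to 136 CPM with vehicle, again nearly all Emx2 (125 to 128 CPM with BMP2). The part of these cell types in the levels of Myh11, Acta2, Tagln and Des was not tested.

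The 5 genes with profiles nearest to Myh11 were Zmat4, Arg1, Greb1, Hunk and Ppp2r2c, of 14391 genes ranked (mean over the 9 libraries of 1 CPM or more). Zmat4 was 2.76 ± 0.283 CPM with E2, 0.695 ± 0.0211 with BMP2 and 0.761 ± 0.0529 with vehicle. It thus entered the ranking only through its E2 level. Nearness was the root mean square difference of log2 CPM, each gene centred on its mean over the 9 libraries, and ran from 0.095 log2 units for Zmat4 to 0.13 for Ppp2r2c. Arg1, the urea cycle enzyme arginase, was 12.1 ± 0.572 CPM with E2, 3.71 ± 0.357 with BMP2 and 3.26 ± 0.309 with vehicle. Hunk, a protein kinase gene, was 113 ± 1.95 CPM with E2, 39.0 ± 0.846 with BMP2 and 39.5 ± 1.34 with vehicle. The other 9 genes of the list lay between 0.77 (Rgs5) and 1.16 (Actc1) log2 units from Myh11. By rank among the 14391 genes, Rgs5 was 1481, Acta2 1785, Tagln 8008 and Actc1 14275. The profiles hold the E2 level of Myh11 that chose the list, so genes higher with E2 come out nearest by construction. These distances are a description and no separate evidence about the list.

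**Figure D5:**
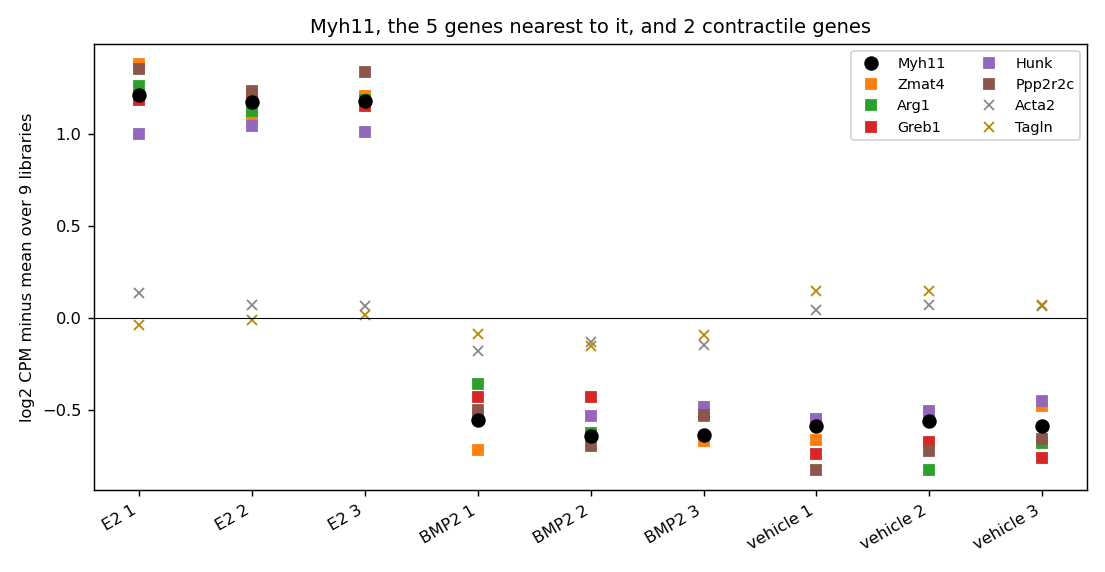
Log2 CPM minus each gene's mean over the 9 libraries (y axis) in every library (x axis) for Myh11 (black circles), its 5 nearest genes (squares) and Acta2 and Tagln (crosses). Myh11 and its nearest genes are about 1 log2 unit or more above their means in the E2 libraries, while Acta2 and Tagln stay near 0 in all 9.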

How the data were processed

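The deposited files hold whole-number read counts per gene symbol, 1 file per library, with 23420 genes and 5 summary rows that took 38.2% to 39.7% of each library and were left out. TopHat2, HTSeq, DESeq2 and the build mm10 appear in the submitters' processing notes, without versions. Annotation and strand setting: not given in the sources used here. Groups come from the prefixes of the sample titles, with C taken as vehicle and B2 as BMP2. Genes kept by filterByExpr (minimum count 10, minimum total 15) were tested in edgeR 4.0.16 (R 4.3.3) with TMM scaling, in 1 quasi-likelihood fit (robust) of 3 group means to all 9 libraries. P-values were adjusted over all 16360 genes by the Benjamini-Hochberg method, and genes were called under 0.05. The SE is the log2 fold change over the root of its F statistic. Levels are CPM with TMM scaling; log2 CPM has a prior count of 2. Gene models are GENCODE vM21 and promoters RefSeq, both GRCm38, the assembly of mm10.

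The members and lists were chosen with earlier results of these data known. By rule, each list gives up to 3 called genes with the largest fold change among those whose higher group reached a mean CPM of 1; 1 listed gene, Foxf1a, was found as Foxf1. One gene the rule names is not reported here. Alternatives were DESeq2 1.42.0, median-ratio size factors, no filter or a mean CPM of 1, only the groups compared, a replicate block, leaving out each library, and a threshold of 0.01.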

Additional observations from a re-analysis of the deposited data

How the results depend on the processing

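With E2, over 12 alternatives, the log2 fold change lay between 1.75 and 1.77 for Myh11, between -0.88 and -0.72 for Actc1 and between -0.16 and -0.12 for Tagln. With BMP2, Acta2, Tagln and Des were called lower under all 12 alternatives, and Mylk was called in 7 of 12. Over all genes, BMP2 gave 1457 calls with DESeq2 and 1318 at an adjusted p under 0.01, against 2239; E2 gave 4161 and 3855, against 5278. Without single libraries the BMP2 values of genes that did not pass changed sign: Actg2 ranged from -0.24 to 0.22, Cnn1 from -0.34 to 0.032, Rgs5 from -0.13 to 0.055 and Pdgfrb from -0.020 to 0.051 (log2).

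Replicate numbers were not taken to pair libraries, since the labels give no shared source and deviations of same-numbered libraries correlated at -0.0090 to 0.071. As a hint from the data the other way, a library correlated best with its own number, out of 3, in 13 of 18 cases. With the replicate number as a block, E2 gave 5512 calls and BMP2 2512, with 4 of the 10 genes called with BMP2. The block also moved the stromal genes called lower with BMP2 to 5, against 3. Calls of the other lists were put through the same alternatives, a step added after seeing the data. Depth limits Actg2, Cnn1 and Rgs5, whose counts were 31 to 134 per library. The cause of changes under DESeq2 was not tested.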
